A study of Mus musculus with 66 samples.

Results

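Cdx1, Cdx2, Hnf4a, Hnf4g, Vil1 and Cdh17, a set of 4 intestinal lineage transcription factors and 2 structural genes of the intestinal epithelium, were followed through the distal gut of mice during chemical colitis. They were taken by gene symbol from the deposited transcript table, the TPM values of all transcripts of a gene were summed, and they are 6 of the 30452 genes it holds. TPM (transcripts per 1000000 transcripts) is a length-adjusted relative abundance, so levels of different genes can be compared within a sample. All mice were wild-type C57Bl/6 animals bought at 6 weeks of age. Dextran sulfate sodium (DSS), which injures the colonic mucosa, was given at 3% for 6 days from day 0. The uninjured group is the 4 mice of day 0, and 3 mice each were killed at day 3, 6, 9, 14 and 20, so mice of day 3 were still within the DSS period. Mid-colon, rectum and anus were taken from all 19 mice, and squamous neo-epithelium from the 9 mice of days 9, 14 and 20, which gives 66 samples in 21 groups. Muscle was dissected off before RNA was isolated, and the labels name neither sequencing runs nor batches. The table holds no read counts, so the depth of a sample is unknown, and 11268 to 13789 genes per sample reached 1 TPM.

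CDX1 and CDX2 are caudal-type homeodomain proteins that give the gut epithelium its intestinal identity. CDX2 is the master factor of that identity and is used as its diagnostic marker. HNF4A and HNF4G are orphan nuclear receptors that act with CDX2 and with each other to switch on enterocyte genes. Villin, the product of Vil1, bundles the actin core of brush border microvilli. Cadherin 17, also called LI-cadherin, is an adhesion protein of the lateral membrane of intestinal epithelial cells. Vil1 and Cdh17 are both known targets of these factors, and stratified squamous epithelium, such as that of the anal canal, uses none of the 6 as lineage genes.

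Promoter sequence is shown for Vil1, Hnf4a and Cdx2, because these are a structural gene that the other levels are set against, a factor with promoter entries for separate start sites, and the factor whose level rose in the rectum at day 9. Each sequence is RefSeq sequence of build GRCm38.p6, read 5′ to 3′ on the gene's strand. It covers up to 250 bases before the RefSeq start and stops where the first annotated protein-coding transcript begins. Capitals mark the letters CAAAG or CTTTG (a part of the HNF4 site) and TTTAT or ATAAA (the core of the CDX site), searched on both strands.
Vil1, chr1:74409134-74409375, plus strand: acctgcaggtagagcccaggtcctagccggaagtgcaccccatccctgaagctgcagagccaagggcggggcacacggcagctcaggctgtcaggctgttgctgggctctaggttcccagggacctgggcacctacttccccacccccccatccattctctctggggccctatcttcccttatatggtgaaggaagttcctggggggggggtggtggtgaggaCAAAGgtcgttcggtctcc
Hnf4a upstream start, chr2:163506607-163506807, plus strand: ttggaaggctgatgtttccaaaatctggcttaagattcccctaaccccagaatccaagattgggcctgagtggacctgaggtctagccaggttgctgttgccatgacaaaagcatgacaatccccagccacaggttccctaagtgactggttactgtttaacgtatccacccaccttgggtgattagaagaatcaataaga
Hnf4a downstream start, chr2:163546905-163547154, plus strand: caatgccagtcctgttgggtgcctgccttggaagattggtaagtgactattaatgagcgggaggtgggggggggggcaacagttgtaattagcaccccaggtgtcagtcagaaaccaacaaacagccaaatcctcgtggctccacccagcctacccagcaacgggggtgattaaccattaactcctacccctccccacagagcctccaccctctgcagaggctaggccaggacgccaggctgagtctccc
Cdx2, chr5:147307271-147307499, minus strand: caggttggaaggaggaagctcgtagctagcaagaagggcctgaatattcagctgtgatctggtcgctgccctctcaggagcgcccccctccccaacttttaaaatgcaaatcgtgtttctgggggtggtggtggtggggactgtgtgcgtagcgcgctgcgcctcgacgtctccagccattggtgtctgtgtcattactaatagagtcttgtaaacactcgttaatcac
The Vil1 window holds 1 match to the HNF4 site part, close to the start. The other windows hold no match to either motif within 250 bases. Among 32851 RefSeq promoter windows of 250 bases, 48.6% hold the HNF4 site part letters and 37.3% the CDX core letters, so a match is common and is only a description of the sequence. Hnf4g and Cdh17 are not shown.

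The transcript values give only a limited view of the Hnf4a start sites. The transcripts Hnf4a-201 and Hnf4a-202 both begin at the downstream start, 40379 bases after the upstream one, and gave nearly all Hnf4a TPM in mid-colon and rectum. Hnf4a-205, a partial model of 3 exons that begins at the upstream start, was listed at 0 in all 19 mid-colon and all 19 rectal samples. It was above 0 in 3 of 19 anal samples (highest 0.467 TPM), all among those with less than 1 TPM of Hnf4a, and in 3 of 9 neo-epithelial samples (highest 0.404 TPM). No longer transcript from the upstream start was listed. Reads from exons that such a transcript shared with Hnf4a-201 and Hnf4a-202 would count there. These values therefore do not show which start was used. Hnf4a-201 and Hnf4a-202 differ by 1 base in start and 5 bases in end, so the split of reads between them is uncertain and is not read here. Hnf4g also has separate starts, and the transcript from its downstream start, Hnf4g-202, made up a median of 75.2% in mid-colon and 78.1% in rectum. Cdx1 and Cdx2 have 1 transcript each in the table, and Vil1-201 and Cdh17-201 made up medians of 98.6% and 99.9% of their genes in rectum.

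On the mm10 (GRCm38) mouse genome, the GENCODE M21 annotation places Cdx1 (ENSMUSG00000024619) at chr18:61018862-61036199 on the minus strand. Cdx2 (ENSMUSG00000029646) lies at chr5:147300805-147307270 on the minus strand and Hnf4a (ENSMUSG00000017950) at chr2:163506808-163572910 on the plus strand. Hnf4g (ENSMUSG00000017688) lies at chr3:3508030-3658052, Vil1 (ENSMUSG00000026175) at chr1:74409376-74435559 and Cdh17 (ENSMUSG00000028217) at chr4:11758147-11817895, all on the plus strand.

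The sections fitted their labels by marker genes, with 1 limit that bears on the anus. The summed level of 10 squamous epithelial markers (Krt5, Krt14, Trp63 and others) ran from 98.6 to 259 TPM in the rectum at day 0 and from 11170 to 17430 TPM in the anus. It ran from 15650 to 33690 TPM over the 9 neo-epithelial samples. The summed level of 12 colonocyte genes at day 0 was 17520 to 19530 TPM in rectum and still 1693 to 5117 TPM in the anus, so the anal section gave colonic as well as squamous RNA. Skeletal muscle markers reached 1493 to 14390 TPM in the anus at day 0, although muscle was dissected off, and 12.5 to 34.4 TPM in the rectum. In such bulk samples, fewer cells of a type and less RNA per cell cannot be told apart. Mouse 4 stood apart at day 0, with the lowest mid-colonic and the highest anal levels of several of the 6 genes, and results that change without it are given below.

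At day 0 the 6 genes were high in mid-colon and rectum and far lower in the anus. Cdh17 and Vil1 were the most abundant, at means of 360.1 ± 13.0 and 305 ± 24.2 TPM in the rectum (SD, n = 4), followed by Hnf4a at 221 ± 22.6 and Cdx1 at 113 ± 19.0 TPM. Hnf4g was at 19.5 ± 3.61 and Cdx2 at 3.48 ± 0.954 TPM. CDX2 is the factor most used to mark intestinal identity, and its mRNA was the least abundant of the 6 in all 3 sections.

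**Figure D1:**
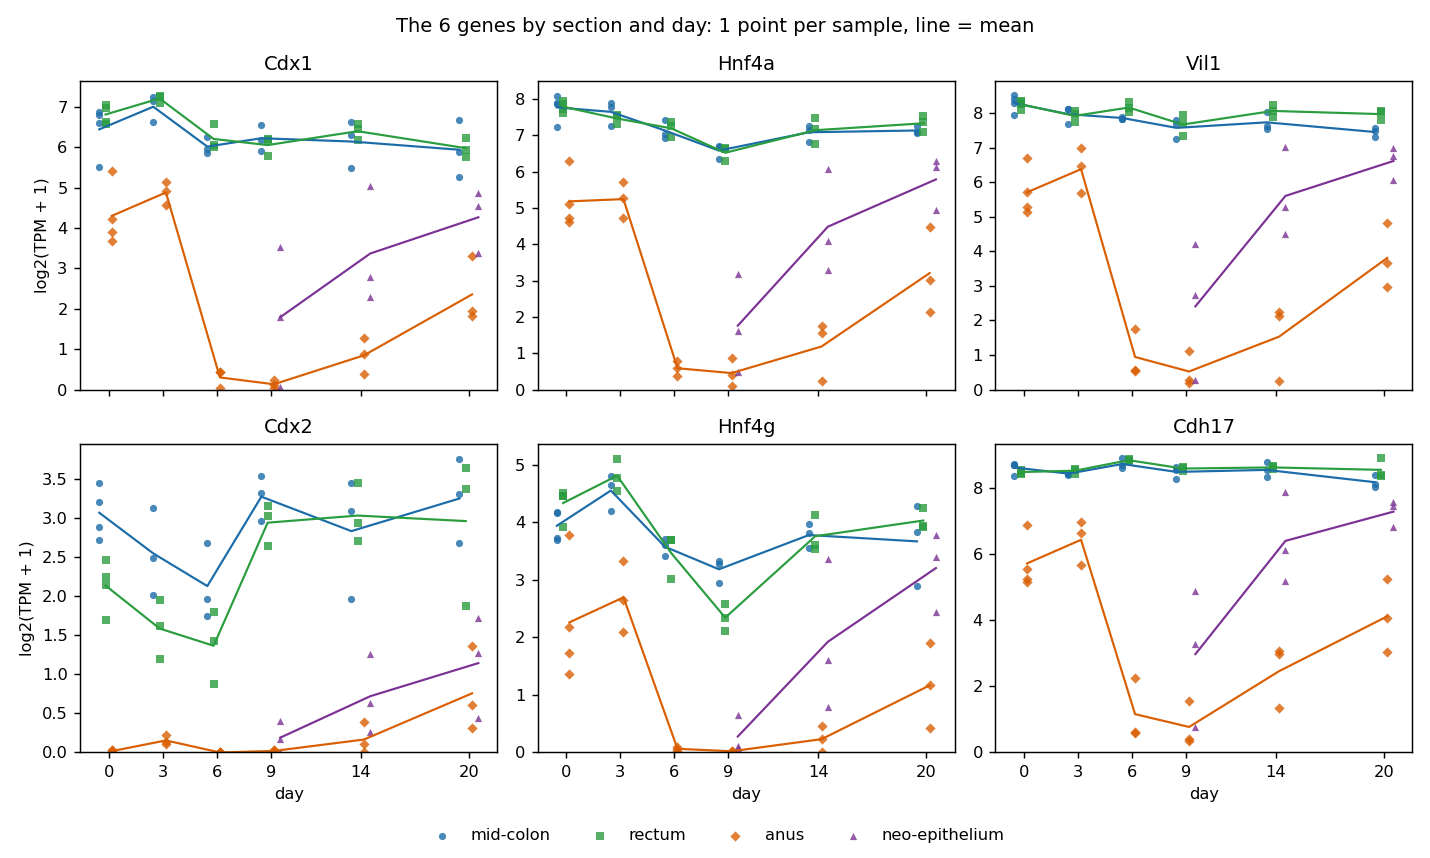
Level of each gene as log2(TPM + 1) against day, for mid-colon, rectum, anus and neo-epithelium; each point is 1 sample and lines join group means. Each panel shows the mean neo-epithelial level rising from day 9 to day 20. Panels other than that of Cdx2 show the anal level falling to near 0 at days 6 and 9. Cdx2 in the anus lies near 0 up to day 14 and at 0.241 to 1.57 TPM at day 20.

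The comparison of anus with rectum at day 0 asks how the genes fall across the anorectal junction. Anal Cdx2 was listed at 0 in mice 1 and 2 and at 0.0235 and 0.0252 TPM in mice 3 and 4. Rectal Cdx2 was 4.54, 2.24, 3.42 and 3.73 TPM in the same mice. Anal Cdx1 was 14.0, 17.8, 11.8 and 41.3 TPM, against 133, 98.8, 125 and 94.4 TPM in the rectum. The groups overlapped for neither gene. Anal Hnf4a was 25.4, 33.6, 23.5 and 77.0 TPM, against 247, 211, 231 and 196 TPM in the rectum. Anal Hnf4g was 1.58, 3.51, 2.31 and 12.7 TPM, against 14.1, 21.8, 20.9 and 21.1 TPM. Mouse 4 was the highest of the 4 anal samples for each gene, and still below every rectal sample.

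On the log2(TPM + 1) scale, all 6 genes were called lower in the anus by limma (adjusted p under 0.05), where 34.4% of the 13158 genes tested were called lower. Cdh17 differed by -2.77 (SE 0.326, limma adjusted p = 7.58e-05), Hnf4a by -2.61 (SE 0.318), Vil1 by -2.55 (SE 0.290) and Cdx1 by -2.51 (SE 0.329). Cdx2 differed by -2.12 (SE 0.178, limma adjusted p = 7.21e-06), a value that the pseudocount of 1 compresses, and Hnf4g by -2.07 (SE 0.445). Anal Cdx2 was under 1 TPM in every sample. Cdx2 thus passed the 1 TPM filter through the rectum alone and could only be called lower. The median over the 6 was -2.53, against -0.15 over all genes tested. In linear terms, the anus kept 18.8% of the rectal mean of Cdx1, 18.0% of Hnf4a, 18.5% of Vil1, 16.5% of Cdh17 and 25.8% of Hnf4g, but 0.35% of Cdx2.

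Levels were also set against villin, a marker of the absorptive epithelium itself. Per 100 TPM of Vil1, Cdx2 was at 1.15 ± 0.315 TPM in rectum and 0.0217 ± 0.0293 in anus (SD, n = 4 each), with no overlap. The exact two-sided permutation p was 0.0286, the smallest that 70 splits allow, and 0.0816 after adjustment over the 20 ratio tests with Vil1. This test took the sections as independent, although both came from the same 4 mice. Cdx1 per 100 TPM of Vil1 was 36.9 ± 3.96 in rectum and 36.7 ± 4.68 in anus (exact permutation p = 0.886, adjusted 0.932), and Hnf4a was 72.6 ± 3.05 and 69.2 ± 6.49 (exact permutation p = 0.4, adjusted 0.533). The Cdx2 difference kept its direction per 100 TPM of Cdh17 and of Cdx1, with the same p. A further 20 ratio tests were made with each of Cdh17 and Cdx1, adjusted on their own. These ratio tests were chosen after the values had been seen, and values near 0 TPM rest on few reads of unknown number.

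Other genes of the intestinal program also fell across the junction. Of 18 other intestinal regulators, 16 were tested and all 16 were called lower in the anus, with a median of -1.71. The largest differences were of Foxa3 (-2.56), Atoh1 (-2.48), which specifies secretory cells, the xenobiotic receptor gene Nr1i2 (-2.41) and Foxa2 (-2.39). Of 10 brush border genes, 9 were called lower, led by the microvillar protocadherin gene Cdhr2 (-2.63), the actin bundler Pls1 (-2.59) and Cdhr5 (-2.44). Tmigd1 was called higher (2.35). All 12 colonocyte genes were called lower (median -3.02), as were all 6 general epithelial genes (median -2.19). The latter are Epcam, Cdh1, Cldn7, Krt8, Krt18 and Krt19, a list that did not follow the squamous markers. Cdh1 is also among the 12 colonocyte genes.

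Between rectum and mid-colon at day 0, none of the 6 genes was called by limma, where 1.79% of the 12037 genes tested were called in either direction and 2805 had an unadjusted p under 0.05. Cdx2 came closest. Mid-colonic Cdx2 was 9.94, 5.62, 8.28 and 6.41 TPM, all above the 4 rectal values, a difference of -0.93 for rectum against mid-colon (SE 0.207, limma adjusted p = 0.0545). With mouse as a block the limma adjusted p was 0.0172, and with TMM scaling it was 0.0281. TMM scaling also called Cdh17 lower (limma adjusted p = 0.0482). It moved the median of all genes from 0.21 to -0.02. Per 100 TPM of Vil1, Cdx2 was 2.41 ± 0.505 in mid-colon and 1.15 ± 0.315 in rectum (exact permutation p = 0.0286, adjusted 0.0816). The permutation again left the sections of the same mice unpaired. The other 5 genes differed by between -0.14 and 0.40.

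**Figure D2:**
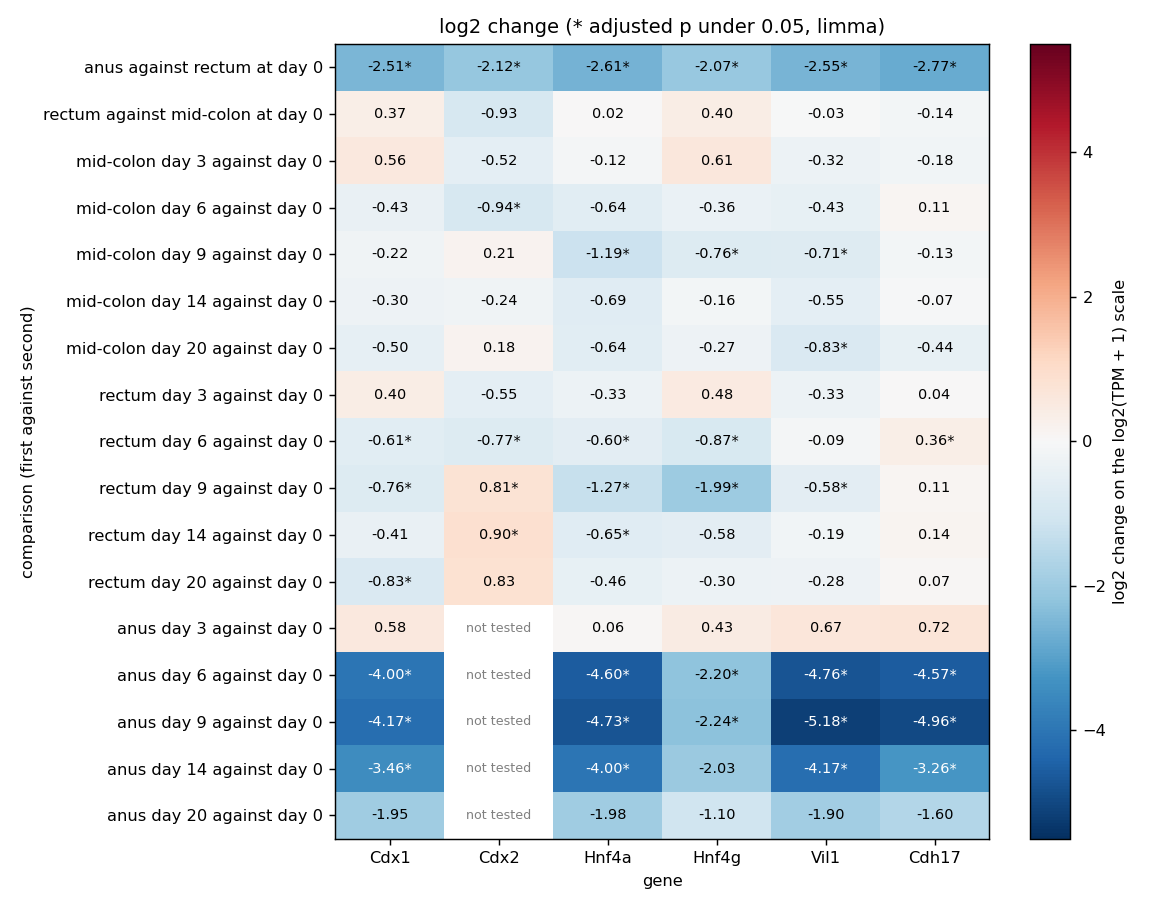
Difference in mean log2(TPM + 1) for each gene (columns) in 17 comparisons (rows), coloured from blue (lower in the first group) to red (higher); an asterisk marks a limma adjusted p under 0.05. Blue cells fill the anal rows of days 6 to 14 except in the column of Cdx2, which was not tested there. In the rectum at day 9 Hnf4g (-1.99) is lower while Cdx2 (0.81) is higher.

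During DSS, in the rectum at day 3, no member was called, where 6.62% of 12348 genes were called in either direction. Rectal Cdx1 stood at 136, 152 and 155 TPM, above each of the 4 uninjured samples (difference 0.40, SE 0.131, limma adjusted p = 0.121, and 0.0447 with TMM scaling). Hnf4g, at 26.4, 22.4 and 33.4 TPM, was also above every uninjured sample (0.48, limma adjusted p = 0.175). Vil1 and Hnf4a lay below every uninjured sample, with differences of -0.33 each. Such statements on overlap are descriptions. The share of all genes without overlap was not counted, here or in any other comparison. In mid-colon at day 3 no member was called either, where 0.375% of 12008 genes were. Anal levels at day 3 overlapped those of day 0 for the 5 genes tested, none was called, and 0.0440% of 13639 genes were.

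By day 6, the end of DSS, the transcription factors of the rectum were lower while Cdh17 was higher. Rectal Hnf4a was 151, 165 and 124 TPM and Hnf4g 12.0, 11.9 and 7.08 TPM, both below all 4 uninjured samples. Cdx1 was 65.3, 93.9 and 63.3 TPM and Cdx2 2.47, 1.68 and 0.841 TPM. Cdx1 lay just below its uninjured range, which ended at 94.4 TPM, and Cdx2 overlapped its own by 1 sample. Cdh17 was 460, 453 and 473 TPM, above the uninjured range of 347 to 374 TPM.

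In that comparison limma called 4 of the 6 genes lower and 1 higher, where 37.2% of 12615 genes were called lower and 11.5% higher. Hnf4g fell by 0.87 (SE 0.212, limma adjusted p = 0.0108), Cdx2 by 0.77 (SE 0.251, adjusted p = 0.0325), Cdx1 by 0.61 (SE 0.175, adjusted p = 0.0210) and Hnf4a by 0.60 (SE 0.124, adjusted p = 0.00579). Cdh17 rose by 0.36 (SE 0.0744, adjusted p = 0.00574), and Vil1 differed by -0.09 (adjusted p = 0.472). The median of all genes tested was -0.27, and TMM scaling moved it to -0.15, where Cdx2 was at an adjusted p of 0.0502. The Cdx2 call was lost without mouse 1, 3, 4, 9 or 10 (highest limma adjusted p 0.103) and the Cdx1 call without mouse 1, 3, 8 or 10 (highest 0.0734). The fit of all 66 samples called none of the 6. The summed level of 8 leukocyte markers in the rectum was 368 to 3450 TPM at day 6, against 12.3 to 22.5 TPM at day 0, and its part in the result was not tested.

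In mid-colon at day 6, Cdx2 was 5.41, 2.92 and 2.35 TPM, below each uninjured sample, and was called lower by limma (-0.94, SE 0.264, adjusted p = 0.0426), where 9.99% of 11967 genes were called lower. The call was lost without mouse 1, 2, 3, 9 or 10 (highest limma adjusted p 0.170). Without mouse 4 the uninjured samples lay closer together, and Cdx1, Hnf4a and Vil1 were called lower as well (limma adjusted p = 0.00657, 0.00539 and 0.00518). Cdh17 differed by 0.11.

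At day 9, 3 days after DSS ended, the 6 genes of the rectum went in different directions. Rectal Hnf4g was 4.95, 4.05 and 3.34 TPM, against 14.1 to 21.8 TPM in the 4 uninjured mice. Hnf4a was 98.3, 77.0 and 99.2 TPM, against 196 to 247 TPM. Cdx2 was 7.95, 5.26 and 7.13 TPM, against 2.24 to 4.54 TPM. Each of these groups was clear of its uninjured counterpart, downwards for both HNF4 genes and upwards for Cdx2. Cdx1 was 71.6, 54.2 and 72.6 TPM and Vil1 207, 162 and 247 TPM, both below all uninjured samples, while Cdh17 at 366, 404 and 394 TPM overlapped them.

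Limma called 4 of the 6 lower and 1 higher, where 20.0% of 13140 genes were called lower and 33.5% higher. Hnf4g fell by 1.99 (SE 0.188, limma adjusted p = 4.80e-05), Hnf4a by 1.27 (SE 0.130, adjusted p = 7.40e-05), Cdx1 by 0.76 (SE 0.164, adjusted p = 0.00430) and Vil1 by 0.58 (SE 0.149, adjusted p = 0.00964). Cdx2 rose by 0.81 (SE 0.214, limma adjusted p = 0.0118). Cdh17 differed by 0.11 (SE 0.0875, limma adjusted p = 0.338). In linear terms the day 9 mean was 21.2% of the uninjured mean for Hnf4g, 41.4% for Hnf4a, 58.7% for Cdx1, 67.4% for Vil1, 108% for Cdh17 and 195% for Cdx2. The 5 calls held in all 7 fits that left out 1 mouse, and the fit of all 66 samples held those of Cdx2, Hnf4a and Hnf4g.

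The composition of the rectum, as read from marker genes, had also shifted by day 9. The sum of the 8 leukocyte markers went from 12.3 to 22.5 TPM at day 0 to 10470 to 12300 TPM at day 9, with none of the markers at 0. The sum of 6 general epithelial genes went from 10440 to 12630 TPM to 6988 to 8770 TPM. That of the stromal markers went from 626 to 782 TPM to 1238 to 1777 TPM. The squamous sum went from 98.6 to 259 TPM to 281 to 995 TPM. The part of these shifts in the results was not tested. Relative to Epcam, an epithelial adhesion gene, Cdx2 was at 0.00271 ± 0.000749 TPM per TPM at day 0 (n = 4) and 0.00666 ± 0.000310 at day 9 (n = 3). Hnf4g per TPM of Epcam was 0.0152 ± 0.00332 and 0.00412 ± 0.000933, and Vil1 was 0.237 ± 0.00400 and 0.204 ± 0.0382.

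Per 100 TPM of Vil1, rectal Cdx2 was 1.15 ± 0.315 at day 0 and 3.32 ± 0.481 at day 9, without overlap (exact permutation p = 0.0286, the smallest that 35 splits allow, adjusted 0.0816). Hnf4a went from 72.6 ± 3.05 to 45.1 ± 4.27 and Cdh17 from 119 ± 13.15 to 195 ± 48.0, each with the same exact permutation p. Hnf4g went from 6.45 ± 1.49 to 2.08 ± 0.634, also without overlap (exact permutation p = 0.0571, adjusted 0.143). Cdx1 went from 36.9 ± 3.96 to 32.5 ± 2.75 (exact permutation p = 0.229, adjusted 0.352). Vil1 was itself called lower, while Cdh17 was not called. Per 100 TPM of Cdh17, Hnf4g went from 5.42 ± 1.09 to 1.07 ± 0.2575 (exact permutation p = 0.0286, adjusted 0.0816). Cdx1 went from 31.4 ± 5.54 to 17.15 ± 3.27 per 100 TPM of Cdh17, without overlap (exact permutation p = 0.0571, adjusted 0.143). The proportion between the CDX genes also shifted. The mean of Cdx1 was 32.4 times that of Cdx2 in uninjured rectum, 71.1 times at day 3 and 9.76 times at day 9.

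**Figure D3:**
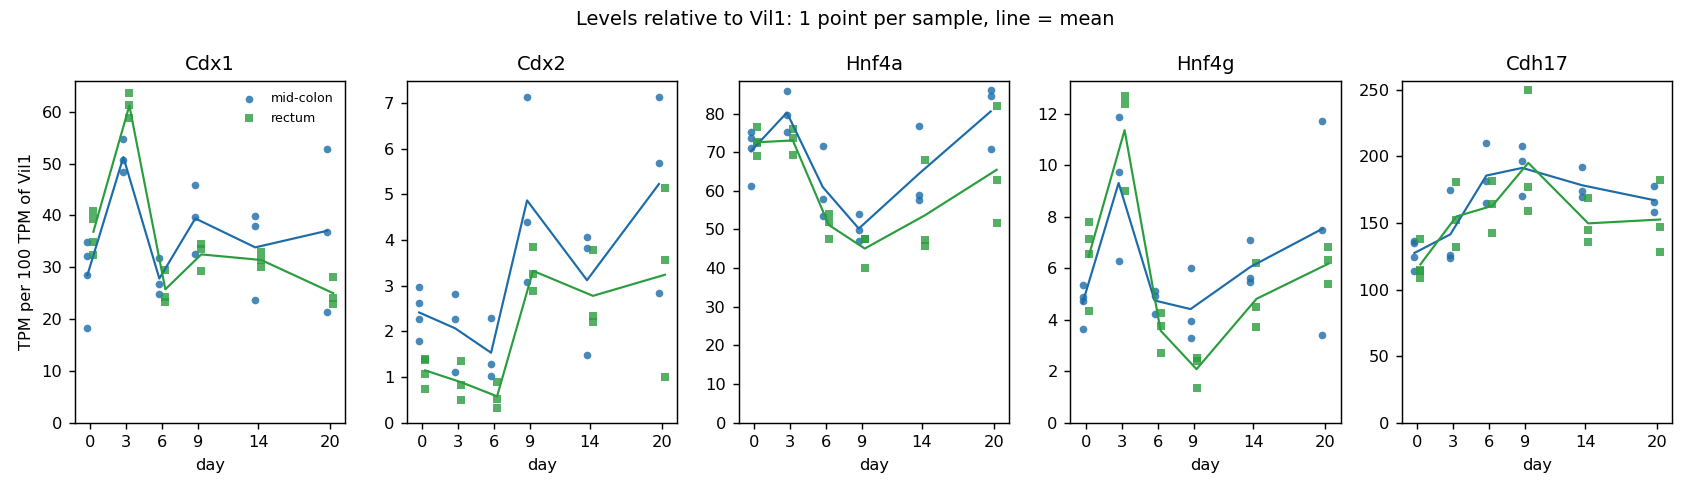
TPM per 100 TPM of Vil1 for the other 5 genes against day in mid-colon and rectum; each point is 1 sample and lines join means. Rectal Cdx2 lies at 0.733 to 1.40 at day 0 and at 2.88 to 3.84 at day 9, while rectal Hnf4a drops from 69.0 to 76.4 at day 0 to 40.1 to 47.6 at day 9.

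In mid-colon at day 9 the HNF4 genes and Vil1 were lower and the CDX genes were not. Hnf4a was 80.7, 102 and 104 TPM, below the uninjured values of 238, 232, 273 and 149 TPM. Hnf4g was 9.02, 6.70 and 8.72 TPM, and Vil1 150, 204 and 221 TPM, each also below its uninjured range. Limma called these 3 lower, where 17.0% of 12323 genes were called lower. Hnf4a fell by 1.19 (SE 0.209, limma adjusted p = 0.00126), Hnf4g by 0.76 (SE 0.203, adjusted p = 0.0124) and Vil1 by 0.715 (SE 0.184, adjusted p = 0.0101). Cdx2 differed by 0.21 and Cdx1 by -0.22. Without mouse 12 the Hnf4g call was lost (limma adjusted p = 0.0560), without mouse 4 Cdx1 was called lower (0.0394), and the fit of all 66 samples called Hnf4a alone. The leukocyte marker sum was 457 to 2116 TPM, against 4.58 to 8.88 TPM at day 0, and its part was not tested.

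Tested as an interaction, the day 9 change of Hnf4g was larger in rectum than in mid-colon, by -1.24 (SE 0.272, limma adjusted p = 0.0126), and 0.703% of 13520 genes were called lower in this test. The call was lost without mouse 13 (limma adjusted p = 0.121) and in the fit of all 66 samples (0.275). Cdx2 gave 0.60 (SE 0.319, adjusted p = 0.349), so its rise was not shown to differ between the sections. The other 4 genes gave between -0.54 and 0.24 and were not called.

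Other regulators of the intestinal epithelium changed with them at day 9. In the rectum, 17 of the 18 could be tested, of which 11 were called lower and 1 higher, with a median of -0.95 against 0.13 over all genes. Vdr, the vitamin D receptor gene, fell by 3.66, Klf5, a factor of proliferating crypt cells, by 1.69, and Klf4 by 1.51. Isx, an intestine-specific homeobox gene that represses vitamin A uptake, moved the other way, by 3.06 (limma adjusted p = 7.85e-06). Rectal Isx was 0.0673, 0.113, 0.666 and 0.282 TPM at day 0, then 5.66, 5.83 and 2.04 TPM at day 3 and 11.0, 7.71 and 10.1 TPM at day 9. At day 20 it was still 24.5, 13.3 and 5.92 TPM. Isx was thus almost unused in uninjured rectum and well above its day 0 range at every later day shown. In mid-colon at day 9, 10 of 17 regulators were called lower, led by Vdr (-3.04), and Isx was again the 1 called higher (3.83).

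Brush border genes gave a mixed picture in the rectum at day 9, with 6 of 10 called lower, 1 higher and a median of -0.99. Espn, an actin bundler, fell by 2.66, Ush1c, a scaffold of the microvillar tip links, by 1.80 and Myo1a, a brush border myosin, by 1.60. Eps8, an actin capping gene, rose by 0.44. Among close relatives, the villin-like genes Vill and Avil rose by 1.76 and 1.60 while Vil1 fell, and Rxra and Nr2f6 fell by 1.43 and 0.63. Of the 12 colonocyte genes 9 were called lower and 1 higher (median -1.36), and of the 6 general epithelial genes 2 were called lower and 1 higher (median -0.33). With TMM scaling no colonocyte or general epithelial gene was called higher.

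During recovery the HNF4 genes returned towards uninjured levels in the rectum, while Cdx2 stayed above its uninjured mean. Rectal Hnf4g was 16.4, 11.2 and 10.6 TPM at day 14 and 18.0, 14.3 and 14.1 TPM at day 20. Hnf4a was 179, 143 and 108 TPM at day 14 and 165, 137 and 183 TPM at day 20. Cdx2 was 9.96, 6.67 and 5.54 TPM at day 14 and 9.36, 2.66 and 11.5 TPM at day 20. All day 14 samples of Cdx2 exceeded the uninjured range, and at day 20 mouse 18 fell inside it. The rectal leukocyte sum was 187 to 4589 TPM at day 14 and 27.5 to 647 TPM at day 20. The squamous sum reached 1210 TPM at day 14 and 788 TPM at day 20, against at most 259 TPM at day 0, and the part of either in these values was not tested.

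At day 14 limma called Cdx2 higher (0.90, SE 0.238, adjusted p = 0.0419), where 6.31% of 12749 genes were called higher, and Hnf4a lower (-0.65, SE 0.171, adjusted p = 0.0412), where 9.51% were called lower. Both calls were lost without any 1 of mice 1, 2, 3, 4, 15 and 16 (highest limma adjusted p 0.0979 and 0.124), and without mouse 14 Hnf4g was called lower (0.0146). At day 20 Cdx1, at 73.9, 60.5 and 53.7 TPM, was the 1 gene called, where 4.88% of 12677 genes were called lower. It fell by 0.83 (SE 0.165, limma adjusted p = 0.0309), a call lost without mouse 1, 2, 3 or 18 (highest 0.0969). Cdx2 differed by 0.83 at day 20 (SE 0.407, limma adjusted p = 0.218, and 0.0403 without mouse 18), and Hnf4a by -0.46 (adjusted p = 0.0703, and 0.0254 without mouse 19).

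Set directly against day 9, the rectum of day 20 had higher Hnf4g (1.69, SE 0.229, limma adjusted p = 0.00473) and Hnf4a (0.81, SE 0.189, adjusted p = 0.0230), where 5.95% of 13097 genes were called higher. The Hnf4a call was lost without mouse 12, 13 or 19 (highest limma adjusted p 0.0756). Cdx2 differed by 0.02 and Cdx1 by -0.08 between these days. In mid-colon no member was called between day 20 and day 9, where 20.6% of 12308 genes were called in either direction, and Hnf4a differed by 0.55 (limma adjusted p = 0.0667). Without mouse 18 mid-colonic Hnf4g was called (0.0451).

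In mid-colon at day 14 no member was called, where 4.36% of 12135 genes were, and Hnf4a and Vil1 differed by -0.69 and -0.55. Both were called with TMM scaling (limma adjusted p = 0.0279 and 0.0218) and without mouse 4 (0.0218 and 0.0413). At day 20 mid-colonic Vil1 was 157, 190.3 and 176 TPM, below all 4 uninjured samples, and was called lower (-0.83, SE 0.177, limma adjusted p = 0.0494), where 0.883% of 12116 genes were. The call was lost without mouse 1, 2, 3, 17, 18 or 19 (highest limma adjusted p 0.163), and without mouse 4 Hnf4a was called lower as well (0.0167).

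In the anus the 5 genes other than Cdx2 nearly vanished at days 6 and 9. Anal Cdx1 was 0.351, 0.0275 and 0.346 TPM at day 6 and 0.0858, 0.174 and 0.0303 TPM at day 9, against 11.8 to 41.3 TPM at day 0. Vil1 was 2.34, 0.448 and 0.469 TPM at day 6 and 0.132, 1.15 and 0.218 TPM at day 9, against 34.5 to 102 TPM. Hnf4a was 0.729, 0.3004 and 0.508 TPM at day 6. The groups were far apart, and the day 6 means were between 0.906% (Hnf4g) and 2.72% (Cdh17) of the day 0 means. Anal Cdx2 was listed at 0 in all 3 samples of day 6 and did not pass the 1 TPM filter in any comparison between anal days.

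Limma called all 5 tested genes lower at day 6, where 6.37% of 13730 genes were called lower, with differences of -4.76 for Vil1 (SE 0.429, adjusted p = 0.000451), -4.60 for Hnf4a, -4.57 for Cdh17, -4.00 for Cdx1 and -2.20 for Hnf4g (SE 0.508, adjusted p = 0.0222). All 5 were also called lower at day 9, where 3.63% of 13591 genes were, with Vil1 at -5.18 and Hnf4g at -2.24 (limma adjusted p = 0.0412). On both days every anal sample of Cdx1, Hnf4a and Hnf4g was under 1 TPM. These genes passed the 1 TPM filter through day 0 alone and could only be called lower. The Hnf4g calls were lost without mouse 2, 8, 9 or 10 at day 6 (highest limma adjusted p 0.0807) and without mouse 2, 11, 12 or 13 at day 9 (highest 0.140). The anal colonocyte sum fell from 1693 to 5117 TPM to 107 to 162 TPM at day 6, and the general epithelial sum from 1738 to 4951 TPM to 155 to 324 TPM. The squamous sum was 16580 to 22370 TPM, so the general epithelial list did not follow squamous epithelium. The part of these sums in the result was not tested.

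At day 14 limma called 4 of the 5 lower in the anus, where 2.01% of 13763 genes were called lower, from -4.18 for Vil1 to -3.26 for Cdh17. Hnf4g differed by -2.03 (SE 0.523, limma adjusted p = 0.0741). Hnf4g was called with TMM scaling (0.0440), with pseudocount 0.1 (0.0341), in the fit of all 66 samples (0.000239) and without mouse 4 (0.0316), and the Cdh17 call was lost without mouse 2 (0.055). At day 20 none of the 5 was called, where 1.46% of 13747 genes were called in either direction. The day 20 means were 22.5% (Cdx1) to 33.8% (Cdh17) of the day 0 means, and the fit of all 66 samples called 4 of them lower. Anal Cdx2 at day 20 was 1.57, 0.241 and 0.518 TPM, above all 4 uninjured anal samples, in sections whose colonocyte sum was 406 to 1822 TPM, against 1693 to 5117 TPM at day 0.

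Rectum, anus and squamous neo-epithelium could be set side by side within 9 mice. At day 9 the lineage genes were low in it: neo-epithelial Hnf4a was 8.10, 0.401 and 2.05 TPM, Vil1 17.4, 0.207 and 5.72 TPM and Cdx2 0.322, 0 and 0.123 TPM in mice 11, 12 and 13. At day 20 Hnf4a was 69.0, 29.8 and 77.1 TPM, Vil1 108, 66.2 and 127 TPM and Cdx2 1.42, 0.354 and 2.30 TPM in mice 17, 18 and 19. No day 20 sample of these 3 genes, or of Hnf4g and Cdh17, overlapped those of day 9. For Cdx2 the gap was narrow and near 0, from 0.322 TPM at day 9 to 0.354 TPM at day 20. Cdx1 did overlap, with at most 10.5 TPM at day 9 and at least 9.51 TPM at day 20. At day 14 the level depended on the mouse, with Hnf4a at 66.1 TPM in mouse 14 and at 8.88 and 16.0 TPM in mice 15 and 16.

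**Figure D4:**
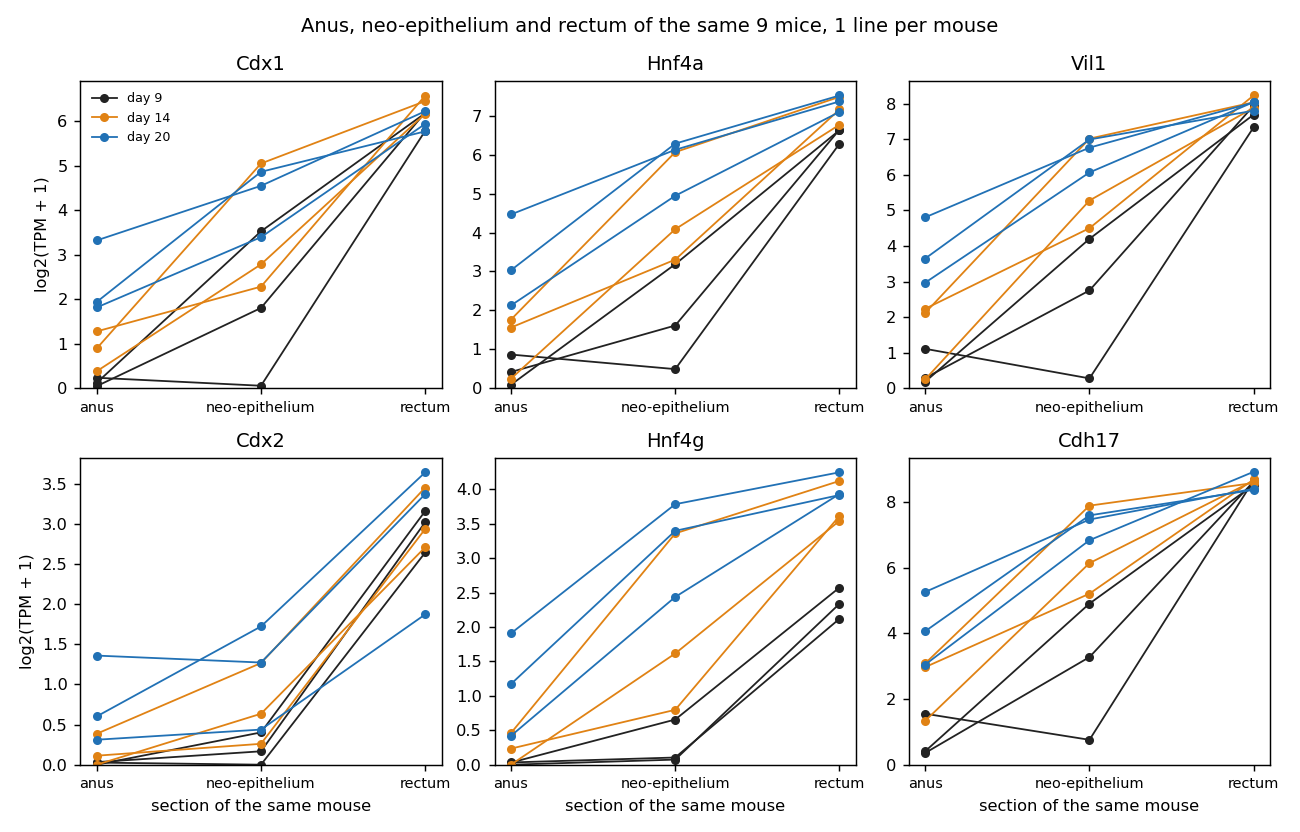
Level as log2(TPM + 1) of each gene in the anus, neo-epithelium and rectum of the same 9 mice; each line is 1 mouse, coloured by day. The neo-epithelium lies below the rectum in 9 of 9 mice for each gene and above the anus in 7 (Cdx2) to 9 (Hnf4g) of 9 mice.

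Against the rectum of the same days, limma called all 6 genes lower in neo-epithelium, where 22.0% of 13024 genes were called lower, and each was lower in 9 of 9 mice. Cdh17 differed by -3.04 (SE 0.615, limma adjusted p = 0.000681), Vil1 by -3.03 (SE 0.565), Cdx1 by -3.00 (SE 0.472), Hnf4a by -2.99 (SE 0.478), Cdx2 by -2.30 (SE 0.247, adjusted p = 1.47e-06) and Hnf4g by -1.58 (SE 0.293). The median over the 6 was -3.00, against 0.00 over all genes tested. Day 20 alone called 3 of them. The distance between the means was smaller on later days, in different mice, and its change was not tested. The neo-epithelial mean of Hnf4a was 3.84% of the rectal mean at day 9, 21.2% at day 14 and 36.3% at day 20, and that of Hnf4g 5.70%, 31.5% and 57.6%. Cdx2 stayed the lowest, at 2.19%, 9.73% and 17.3%.

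Per 100 TPM of Vil1, Cdx2 was 1.24 ± 0.683 in neo-epithelium and 3.11 ± 1.18 in rectum, lower in 9 of 9 mice. The exact two-sided sign-flip permutation p was 0.00391, the smallest that 512 patterns give, and 0.0781 after adjustment over the 20 ratio tests with Vil1. It was also lower in 9 of 9 mice per 100 TPM of Cdh17, and in 8 of 9 per 100 TPM of Cdx1 (exact permutation p = 0.0117). Hnf4g went the other way, at 7.99 ± 7.18 in neo-epithelium and 4.36 ± 1.98 in rectum, lower in 2 of 9 mice (exact permutation p = 0.0156, adjusted 0.0816). Its highest value, 25.3, was that of mouse 12, whose neo-epithelial Hnf4g and Vil1 were both near 0. Without that mouse Hnf4g was 5.83 ± 3.25 in neo-epithelium and 4.59 ± 1.98 in rectum (n = 8, exact permutation p = 0.0312), and Cdx2 was 1.39 ± 0.537 and 3.10 ± 1.27 (exact permutation p = 0.00781). Per 100 TPM of Cdh17, the difference of Hnf4g over the 9 mice had an exact permutation p of 0.0977. Uninjured rectum, of other mice, had 1.15 ± 0.315 TPM of Cdx2 and 6.45 ± 1.49 TPM of Hnf4g per 100 TPM of Vil1. Both lay nearer to the neo-epithelial mean than to the rectal mean of days 9 to 20. Neo-epithelium was not tested against uninjured rectum. None of the 20 ratio tests with Vil1 reached an adjusted p of 0.05.

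Against the anus of the same days, limma called the 4 genes that could be tested higher in neo-epithelium, where 40.1% of 13256 genes were called higher. Cdh17 differed by 3.11 (SE 0.518, limma adjusted p = 8.60e-05), Vil1 by 2.92, Hnf4a by 2.40 and Cdx1 by 2.03. Cdx2 and Hnf4g were under the filter, at means of 0.741 and 4.38 TPM in neo-epithelium and 0.306 and 0.548 TPM in anus. In mouse 12 at day 9 the 4 tested genes were lower in neo-epithelium than in anus, and day 9 alone called none.

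Within the neo-epithelium, limma called Hnf4a (4.03, SE 0.699, adjusted p = 0.0101), Hnf4g (2.93, SE 0.372, adjusted p = 0.00443), Vil1 (4.21, SE 0.920, adjusted p = 0.0198) and Cdh17 (4.32, SE 0.956, adjusted p = 0.0206) higher at day 20 than at day 9, where 10.1% of 13186 genes were called higher. Cdx1 differed by 2.48 (SE 0.859, limma adjusted p = 0.0755, and 0.0284 without mouse 11), and Cdx2 was under the filter. Hnf4g was under 1 TPM in every day 9 sample, passed the filter through day 20 alone and could only be called higher. The Vil1 and Cdh17 calls were lost without mouse 13, 17 or 19 (highest limma adjusted p 0.0702 and 0.0721). Between day 14 and day 9 no member was called, where 16.8% of 13129 genes were called in either direction.

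The colonocyte sum in neo-epithelium rose with them, from 114 to 695 TPM at day 9 to 3775 to 8491 TPM at day 20, while the squamous sum was 31440 to 33690 TPM at day 9 and 20430 to 24890 TPM at day 20. The leukocyte sum was 6808 to 17060 TPM at day 9 and 496 to 5417 TPM at day 20, and the sum of 7 stromal markers 3279 to 3978 and 763 to 1548 TPM. The part of these cell types in the result was not tested. All 12 colonocyte genes were called higher at day 20 (median 6.02), as were 8 of 10 brush border genes and 10 of the 16 other regulators tested, led by Nr1i2 (3.15) and Vdr (2.88). Against the rectum, 13 of 17 regulators were called lower in neo-epithelium, led by Nr1i2 (-2.43), Isx (-2.34) and Foxa3 (-2.28). Foxa1, a pioneer factor also used outside the intestine, was higher (0.64).

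Over all 66 samples, the pattern of each of the 6 genes was set beside that of every other gene. The genes with the highest Pearson r of log2(TPM + 1) among 14908 genes were Ppp1r1b, Atp2a3 and Myo1a for Cdx1 (0.989, 0.984 and 0.983), and Cdhr2, Myo1a and Ush1c for Hnf4a (0.993, 0.992 and 0.992). For Vil1 they were Gpa33, Eps8l3 and Cdh17 (0.997, 0.994 and 0.993), for Cdh17 they were Gpa33, Vil1 and Ms4a8a (0.994, 0.993 and 0.992), and for Hnf4g Nr3c2, Abat and Nectin3 (0.976, 0.976 and 0.974). For Cdx2 the highest was lower, with the sodium-proton exchanger gene Slc9a3 at 0.918, and Cyp4f40 was at 0.888. Its r with the other members ran from 0.713 (Hnf4g) to 0.772 (Hnf4a). These values are a description, and the samples share 19 mice and span sections with very different levels.

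Within the 19 rectal samples, Hnf4a and Hnf4g had an r of 0.816 and Hnf4a and Vil1 of 0.718. Cdx2 had a negative r with each of the other 5 genes, from -0.19 with Hnf4a to -0.46 with Cdh17. Cdx1 and Cdx2 had an r of -0.38 in rectum and -0.15 in mid-colon, and of 0.876 over the 9 neo-epithelial samples. Within the 19 anal samples the 5 genes other than Cdx2 had r values of 0.933 to 0.991 with each other, and Cdx2 had 0.144 (Cdx1) to 0.248 (Cdh17) with them.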

How the data were processed

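The authors deposited 1 table of TPM values per transcript for bulk RNA-seq, here a unit listed as other because columns summed to 1027330 to 1062208.5. The submitters' processing notes name CASAVA, kallisto and mm10, with no versions or roles. Per the labels' protocols, libraries were stranded mRNA, read as single 75 bp reads. Of 126860 rows, 37344 had no values and 1318 repeats of a transcript were dropped, after which columns summed to 1000000. TPM was summed per gene. No counts were used, so precision is given only by the spread between mice.

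Groups follow section and day in the labels. Models used limma 3.58.1 (R 4.3.3, lmFit, eBayes with trend) on log2(TPM + 1), for genes that reached 1 TPM in a number of samples equal to the size of the smaller group, with Benjamini-Hochberg adjustment over all genes tested and calls at an adjusted p under 0.05. Fits used only the groups compared, and day was a covariate for neo-epithelium against other sections. These fold changes understate the change of low genes. A gene under 1 TPM throughout 1 group passes through the other group alone and can only be called higher there. The script was tested on simulated data. Several sections came from 1 mouse per the labels' mouse numbers, and their deviations from group means had mean r of 0.052 (anus and rectum), 0.133 (rectum and mid-colon), 0.258 (neo-epithelium and rectum) and 0.157 (neo-epithelium and anus). Alternatives were a mouse block, TMM scaling factors (the published trimmed mean formula written out in R, whose weights were made for read counts), pseudocount 0.1, no filter or 5 TPM, all 66 samples in 1 fit, single days and leaving out each mouse. Ratios to Vil1, Cdh17 and Cdx1 were tested in Python 3.11.15 by exact permutation, with the 20 tests of each denominator adjusted on their own. Mice were paired only for neo-epithelium against rectum. Some ratio tests were also run without mouse 12, and all were added after seeing the data. Later days share the day 0 samples of their section. The members and gene lists were chosen with earlier results of these data known. Named list genes are the 2 to 4 called genes with the largest change and any that moved against the rest, and for likeness the 3 genes with the highest r. Some genes that this rule names are not reported here.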

Additional observations from a re-analysis of the deposited data

Results flagged for a closer look

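In the day 9 response, Hnf4g changed by -1.24 more on the log2(TPM + 1) scale in rectum than in mid-colon, by the interaction term of limma (adjusted p = 0.0126). Within 4 samples of a day 0 group, 3 values lay far from the other 3. These were rectal Hnf4g of mouse 1 at 14.07 TPM, below 20.9 to 21.8 TPM in the others, anal Cdh17 of mouse 4 at 118.6 TPM, above the 3 others, and mid-colonic Cdh17 of mouse 4 at 334.2 TPM, below the 3 others. Of 18 pairs of a gene and a day 0 group of 4 samples examined, 3 were marked in this way. Chance marks about 1 in 20 of independent sets, and these pairs share the same mice.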

How the results depend on the processing

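No called difference of a gene changed its direction under any alternative run. Over 134 pairs of a gene and a comparison and 1616 alternatives, 1492 stayed on the same side of the threshold, 90 lost a call and 34 gained one. With TMM factors the number of the 6 genes called became 2 for rectum against mid-colon at day 0, 2 for mid-colon at day 6, 2 for mid-colon at day 14, 1 for rectum at day 3, 4 for rectum at day 6, 2 for rectum at day 20, 5 for anus at day 14 and 1 for mid-colon day 20 against day 9. The mouse block, a replicate block, gave 1 for rectum against mid-colon at day 0 (Cdx2, adjusted p = 0.0172 by limma) and changed no other call. Without a filter on low values the number was 0 for mid-colon at days 6 and 20 and rectum at days 14 and 20, and with pseudocount 0.1 it was 0 for mid-colon at day 20. With all 66 samples in 1 fit it became 1 for mid-colon at day 9, 0 for mid-colon at day 20, 0, 3, 0 and 0 for rectum at days 6, 9, 14 and 20, 4 for anus at day 20, 1 for rectum day 20 against day 9, 4 for neo-epithelium day 14 against day 9 and 0 for the day 9 interaction. Day 20 alone gave 3 for neo-epithelium against rectum, and day 9 alone 0 for neo-epithelium against anus. Why these settings differ was not tested. Leaving out 1 mouse gave 0 to 4 calls for mid-colon at day 6, 2 to 4 at day 9, 0 to 2 at day 14 and 0 to 2 at day 20. It gave 3 to 5 for rectum at day 6, 0 to 3 at day 14 and 0 to 2 at day 20, 3 to 5 for anus at day 14, 0 to 1 for mid-colon and 1 to 2 for rectum at day 20 against day 9, 2 to 5 for neo-epithelium at day 20 against day 9 and 0 to 1 for the interaction. With 3 or 4 mice per group and no counts, small differences and levels near 0 TPM cannot be resolved.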
